A study of Mus musculus with 6 samples.

Results

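Neuropeptide precursors, granins and the enzymes that cut peptides out of them were followed in cerebella of mice that carry a knock-in allele for spinocerebellar ataxia 7 (SCA7), a disease in which an expanded glutamine-coding repeat in Atxn7 damages cerebellum and retina. The members were the 37 rows of the count table whose GENCODE M21 symbol was one of 26 peptide precursors, 6 granins or 5 genes of processing (4 enzymes and the convertase inhibitor Pcsk1n), of 48709 rows in all. Of the 37, 27 had enough reads to be tested and 10 precursors did not. The Kihet group was 3 cerebella with the genotype SCA7 140Q/5Q, in which the 2 Atxn7 alleles encode 140 and 5 glutamines, and the WT group was 3 wildtype cerebella. All mice were C57BL/6J and 40 weeks old. The knock-in allele is in the germ line and whole cerebellum was sampled, so the counts do not say which cells carry a transcript. The labels give neither the number of animals nor their sex, so the p-values cover the spread between these 6 samples and that spread could be technical. Libraries held 34630391 to 39826478 counts in the Kihet group and 39528292 to 49127673 counts in the WT group. The comparison asks how peptide genes differ with the knock-in allele.

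Neuropeptides are made as long precursors that are sorted into dense-core vesicles. Granins are the acidic proteins that fill these vesicles, and several of them are themselves precursors. The convertases encoded by Pcsk1 and Pcsk2 cut the precursors after pairs of basic residues, carboxypeptidase E, encoded by Cpe, trims the basic residues off, and the enzyme encoded by Pam turns an exposed glycine at the end into an amide. In the cerebellum peptides come from local neurons, such as the enkephalin-containing Golgi cells, and from afferent fibres whose cell bodies, and most of whose messenger RNA, lie in the brainstem.

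The chain of enzymes can be read from the coding sequence. Glycine followed by a pair of basic residues is the signal that convertase, carboxypeptidase and amidating enzyme use in turn. The sites of 4 precursors that the results turn on are shown as 30 bases of coding strand, with the glycine codon and both basic codons in capitals. They are the end of galanin in Gal (chr19:3411592-3411621, minus strand), of substance P in Tac1 (chr6:7556744-7556773, plus strand), of calcitonin gene-related peptide in Calca (chr7:114632461-114632490, minus strand) and of cholecystokinin in Cck (chr9:121490098-121490127, minus strand), from GENCODE M21 transcripts on mm10.
Gal: agcgacaagcatggcctcacaGGCAAGAGG
Tac1: cagcagttctttggattaatgGGCAAGCGG
Calca: aatgtgggctctgaagccttcGGCCGCCGC
Cck: tacatgggctggatggattttGGCCGGCGC
The first 3 belong to the precursors with every Kihet value above every WT value, and Cck had the lowest log2 fold change of the tested precursors. In the longest coding sequence of each gene, precursors held 6.24 such triplets per 1000 codons, granins 0.654, processing enzymes 0.645 and all 21613 protein-coding genes 0.964. Pairs of basic codons numbered 28.2 per 1000 codons in precursors, 23.2 in granins, 16.4 in processing enzymes and 15.6 in all protein-coding genes. At least 1 triplet was present in 18 of the 26 precursors (69.2%) by their longest coding sequence and in 35.1% of all protein-coding genes. Cck is not among the 18, since its longest coding sequence, of 134 codons, lacks the triplet and the site shown is from a transcript of 115 codons. Pairs of basic codons were thus denser in precursors and granins than in all genes, and the triplet in precursors alone of the 3 classes.

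A second feature concerns the promoters. The cAMP response element TGACGTCA, the site of CREB family factors, reads the same on both strands and was searched in windows of 250 bases before to 50 after the start of each gene, from RefSeq on GRCm38.p6. It was present for 6 of the 30 members with a window (20%) and for 2.03% of 27025 genes. The 6 were Sst, Ucn, Cartpt, Chgb, Scg2 and Pcsk1. Penk, Crh, Calcb, Grp, Nxph4, Vgf and Cpe had no entry. The windows of 4 tested members are shown with the element in capitals, because they span all 3 classes: Sst at chr16:23890875-23890902 (minus strand), Chgb at chr2:132781560-132781587 (plus strand), Scg2 at chr1:79440077-79440104 (minus strand) and Pcsk1 at chr13:75089769-75089796 (plus strand).
Sst: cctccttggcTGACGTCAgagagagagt
Chgb: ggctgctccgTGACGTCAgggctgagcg
Scg2: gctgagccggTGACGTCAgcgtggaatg
Pcsk1: caggtagatcTGACGTCAagagatggct
The element began 44 to 112 bases before the start in the 6 members. Their RNA did not move one way: Sst had a positive log2 fold change and Chgb, Scg2 and Pcsk1 negative ones, none of which passed the test, and Ucn and Cartpt were not tested.

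The Kihet libraries differed among themselves in markers of other cells. Markers of brainstem monoamine and cholinergic neurons, which include Dbh, Slc6a2 and Slc18a2, summed to 106.4, 28.3 and 67.3 CPM in Kihet, against 25.3, 31.9 and 26.6 CPM in WT, where CPM are read counts scaled to library size. Of 11 such markers 8 were tested and 2 were called higher in edgeR (adjusted p not above 0.05), against 0.629% of all tested genes. None of the 11 was at 0 throughout a group. Markers with few reads could pass the filter for testing mainly through the Kihet libraries. The sum of Kihet replicate 2 lay inside the WT range, and those of Kihet replicates 1 and 3 above it. Gene by gene, however, Kihet replicate 2 was above every WT library in 5 of the 8 tested markers, within the WT range in 2 and below it in 1. Of the 8, 7 were higher at an unadjusted edgeR p under 0.05, against 9.80% of all tested genes. The marker below the WT range was Th, at 15.97, 7.36 and 14.8 CPM in Kihet, against 13.4, 15.4 and 14.7 CPM in WT. Ddc had 14.8, 11.7 and 13.7 CPM in Kihet, against 8.58, 8.18 and 9.35 CPM in WT. Th and Ddc together held most of the sum in each WT library, so the position of a sum depends largely on these genes. Whole cerebellum was measured, so more or fewer cells of a type in a sample and more or less RNA per cell cannot be told apart.

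Most of the RNA of these members came from a few genes, and of the most abundant precursors Penk and Npy had close levels in both groups. Levels of different genes are compared as CPM per kilobase of exon. Cpe was the most abundant member, at 400.5 ± 11.8 per kilobase in Kihet and 437.7 ± 14.5 in WT (SD, n = 3 each). Next came 3 granins. Chgb stood at 194 ± 23.8 CPM per kilobase in Kihet and 237.8 ± 25.6 in WT, Scg5 at 161.4 ± 16.7 in Kihet and 137.2 ± 8.98 in WT, and Scg3 at 119.7 ± 7.60 in Kihet and 143 ± 8.40 in WT. Among precursors Penk, which encodes the enkephalins, led with 91.5 ± 4.49 CPM per kilobase in Kihet and 94.0 ± 5.01 in WT, followed by Npy (neuropeptide Y) with 25.6 ± 2.07 in Kihet and 26.8 ± 2.50 in WT and Cck with 20.2 ± 2.71 in Kihet and 26.4 ± 3.07 in WT. Penk alone made up 51.3 to 62.3% of the summed precursor CPM in the Kihet libraries and 58.5 to 65.6% in the WT libraries. Without Penk, the remaining precursors summed to 134.4, 91.4 and 130.6 CPM in Kihet, against 80.7, 109.3 and 103.1 CPM in WT. These sums overlapped, because Kihet replicate 2 was below 2 of the WT libraries.

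**Figure D1:**
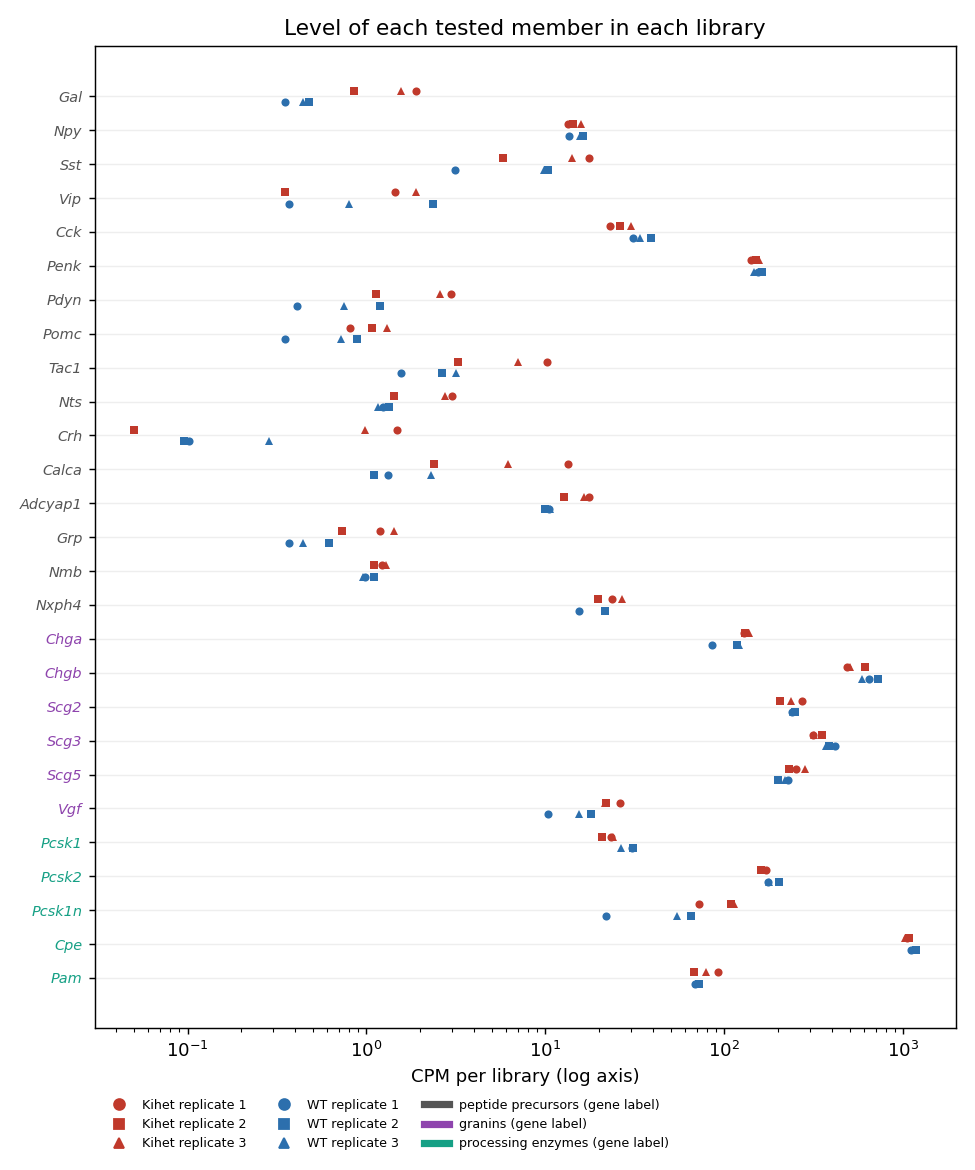
CPM of the 27 tested members in each library on a log axis, with Kihet in red above WT in blue and a symbol for each replicate. Gal and Adcyap1 separate by group, Penk and Npy coincide, and for many precursors the square of Kihet replicate 2 lies left of the other Kihet libraries.

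Of the 27 tested members, 1 was called in edgeR (adjusted p not above 0.05), and it was higher in Kihet, while 1.90% of 16699 tested genes were called, 0.629% higher and 1.28% lower. No member was called lower in edgeR. DESeq2 called 5 members higher (Gal, Pdyn, Calca, Adcyap1 and Vgf) and 2 lower (Cck and Pcsk1), against 2.52% and 3.18% of the genes it tested. At an unadjusted edgeR p under 0.05 there were 12 members higher and 4 lower, against 9.80% of tested genes higher and 8.26% lower (18.1% in all). The groups did not overlap for 16 members, 11 higher and 5 lower, against 23.8% of tested genes, 12.3% higher and 11.5% lower. Crh was the only tested member with libraries under the minimum count of 10, at 55, 2 and 35 reads in Kihet and 5, 4 and 11 in WT. It passed the filter through Kihet replicates 1 and 3 and WT replicate 3. Counts over the tested members are a description. By class, the median log2 fold change was 0.71 over 16 precursors, 0.10 over 6 granins and -0.13 over 5 processing genes (Pcsk1n included), against 0.01 over all tested genes.

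The gene that rose was Gal, which encodes galanin, a peptide best known from noradrenergic neurons of the locus coeruleus and from hypothalamus. Gal (ENSMUSG00000024907, chr19:3409915-3414544) had 1.89, 0.85 and 1.56 CPM in Kihet, against 0.35, 0.48 and 0.44 CPM in WT. Every Kihet library was above every WT library, and Kihet replicate 2 was the lowest of its group. The values rest on few reads, 70, 34 and 56 in Kihet and 17, 20 and 17 in WT. This is a 3.40-fold difference in the fit, a log2 fold change of 1.76 with an SE of 0.34 and an edgeR adjusted p of 0.0312. Leaving out any single library other than Kihet replicate 2 ended the call (adjusted p from 0.0848 to 0.142 without WT replicate 1, 2 or 3 or Kihet replicate 1 or 3), while the log2 fold change stayed between 1.52 and 1.86. In those fits 0.0414 to 0.152% of all genes were called higher. In a fit that carries the mean level of brainstem neuron markers as a covariate the log2 fold change was 0.90 ± 0.43 (adjusted p 0.792).

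Calca, Tac1, Nts and Adcyap1 showed the same order of libraries as Gal within the Kihet group without passing the test. Calca, whose gene yields calcitonin and calcitonin gene-related peptide, had 13.3, 2.38 and 6.15 CPM in Kihet, against 1.31, 1.098 and 2.30 CPM in WT. Its groups were separated only narrowly, by Kihet replicate 2, and the log2 fold change was 2.22 ± 0.52 (edgeR adjusted p 0.0647, DESeq2 adjusted p 0.0472). Without Kihet replicate 1, which had the most reads, it was 1.45 (adjusted p 0.173), and with the brainstem covariate 0.50. Counts per gene do not tell its 2 products apart. Tac1, the precursor of substance P and neurokinin A, had 10.3, 3.26 and 7.02 CPM in Kihet, against 1.56, 2.62 and 3.15 CPM in WT, a log2 fold change of 1.49 ± 0.38 (edgeR adjusted p 0.0818). Here too Kihet replicate 2 lay just above the highest WT library. Nts, which encodes neurotensin, had 3.004, 1.43 and 2.76 CPM in Kihet, against 1.23, 1.34 and 1.16 CPM in WT, a log2 fold change of 0.94 ± 0.28 (edgeR adjusted p 0.12).

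Adcyap1, the precursor of the peptide PACAP, varied least within the groups among these 5 genes. It had 17.5, 12.7 and 16.5 CPM in Kihet, against 10.5, 9.88 and 10.6 CPM in WT. The WT libraries lay close together and all Kihet libraries were above them. The log2 fold change of 0.59 ± 0.13 had an edgeR adjusted p of 0.0546, just outside the threshold, while DESeq2 gave an adjusted p of 0.00317. Grp, which encodes gastrin-releasing peptide, also had groups that did not overlap, with 1.19, 0.73 and 1.42 CPM in Kihet against 0.37, 0.62 and 0.44 CPM in WT (log2 fold change 1.22 ± 0.33, edgeR adjusted p 0.0986).

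The groups overlapped for Pdyn, Crh, Sst, Pomc and Vip. Pdyn, the dynorphin precursor, had 2.95, 1.13 and 2.59 CPM in Kihet, against 0.41, 1.19 and 0.75 CPM in WT (log2 fold change 1.51 ± 0.42, edgeR adjusted p 0.105, DESeq2 adjusted p 0.0111). Crh, the corticotropin-releasing hormone gene, varied widely, with 1.49, 0.05 and 0.97 CPM in Kihet against 0.10, 0.10 and 0.28 CPM in WT. Its 2 Kihet libraries with more reads were above all of WT and Kihet replicate 2, with 2 reads, below all of WT (log2 fold change 2.39 ± 0.85, edgeR adjusted p 0.184). It was 1.67 without Kihet replicate 1, 3.01 without WT replicate 3, 1.54 in limma-voom and -0.33 with the brainstem covariate. Sst, the somatostatin gene, had 17.5, 5.77 and 14.04 CPM in Kihet, against 3.11, 10.3 and 9.79 CPM in WT, so Kihet replicate 2 lay inside the WT range. Its log2 fold change of 0.69 ± 0.44 turned to -0.49 with that covariate. Pomc, the precursor of melanocortins and beta-endorphin, had a log2 fold change of 0.72 ± 0.35 (edgeR adjusted p 0.311), and Vip, the vasoactive intestinal peptide gene, one of 0.06 ± 0.65 (edgeR adjusted p 0.971). Vip had no stable direction: it was 1.08 without WT replicate 2, -0.40 without WT replicate 1 and -1.89 with the covariate.

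**Figure D2:**
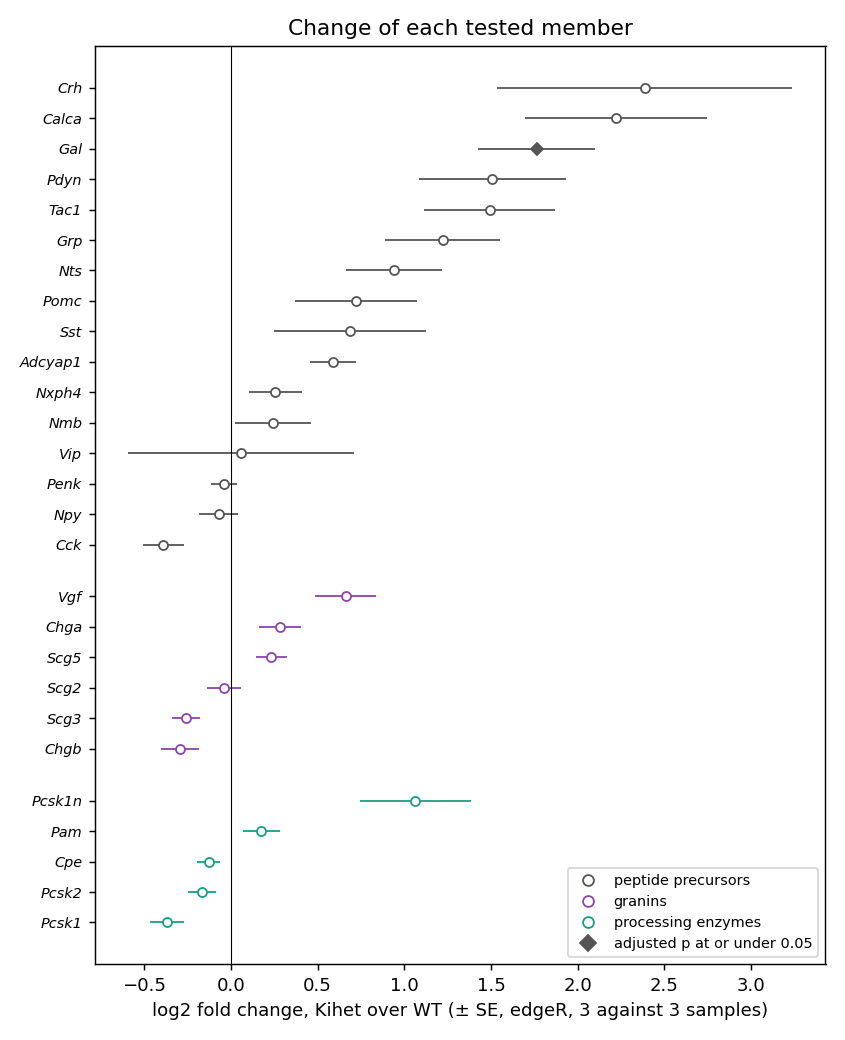
Log2 fold change of each tested member, Kihet over WT, with its standard error from edgeR, ordered within precursors, granins and processing enzymes. The filled diamond of Gal at 1.76 marks the one member with an adjusted p at or under 0.05, and Calca and Crh lie above it with wider errors.

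The most abundant precursors differed little or were lower. Penk had 141.6, 150.8 and 156.1 CPM in Kihet, against 153.8, 161.7 and 145.4 CPM in WT, overlapping groups with a log2 fold change of -0.04 ± 0.08 (edgeR adjusted p 0.83). Npy had 13.4, 14.2 and 15.7 CPM in Kihet, against 13.6, 16.3 and 15.7 CPM in WT (log2 fold change -0.07 ± 0.11, edgeR adjusted p 0.79). The sign of Penk and of Npy turned positive, at 0.034 and 0.0062, with scaling by library size alone. Cck, the cholecystokinin gene, had 22.8, 26.2 and 29.9 CPM in Kihet, against 30.8, 38.7 and 33.9 CPM in WT. Each Kihet library was below each WT library, at a log2 fold change of -0.39 ± 0.12 (edgeR adjusted p 0.134). Corrected for GC content and length, Cck was called lower (log2 fold change -0.58, adjusted p 0.00778). Nmb (neuromedin B) and Nxph4, a neurexophilin that binds neurexins and is no classical peptide precursor, had log2 fold changes of 0.25 ± 0.22 and 0.26 ± 0.15 (edgeR adjusted p 0.596 and 0.409). Nxph4 turned to -0.03 with GC and length offsets.

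The 10 precursors that were not tested were Tac2, Trh, Calcb, Cartpt, Hcrt, Pmch, Avp, Oxt, Nmu and Ucn. Their highest value in any library was 0.785 CPM, of Calcb in Kihet replicate 1, followed by 0.541 CPM of Cartpt in the same library, 0.328 CPM of Tac2 in WT replicate 1 and 0.271 CPM of Pmch in Kihet replicate 1. The other 6 reached at most 0.129 CPM. Most of these encode peptides of hypothalamic neurons, such as vasopressin (Avp), oxytocin (Oxt), orexin (Hcrt) and melanin-concentrating hormone (Pmch). Calcb, a paralogue of Calca with a similar sequence, had 29, 3 and 2 reads in Kihet, against 0, 0 and 2 reads in WT, so Kihet replicate 1 held nearly all of them. Pmch had 10, 2 and 3 reads in Kihet, against 0, 0 and 1 read in WT. Avp had 2 reads over the Kihet libraries and 0 over the WT libraries, and Oxt had 3 reads over Kihet and 0 over WT. A count of 0 in a library allows up to 3 reads, so neither gene differed detectably at this depth.

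No granin was called in edgeR, and at an unadjusted p under 0.05 there were 3 higher and 2 lower, against 9.80% and 8.26% of tested genes, while DESeq2 called Vgf higher (adjusted p 0.00766). Vgf, a granin-family precursor induced by neurotrophins, had 26.1, 21.8 and 21.4 CPM in Kihet, against 10.4, 17.99 and 15.5 CPM in WT. All Kihet libraries were above all WT libraries, and WT replicate 1 was well below the other WT libraries. The log2 fold change was 0.66 ± 0.18 (edgeR adjusted p 0.0935), and it was 0.45 without WT replicate 1 and 0.36 with GC and length offsets. Chga (chromogranin A) had 128.8, 129.8 and 137.1 CPM in Kihet, against 85.7, 118.3 and 121.4 CPM in WT, again with WT replicate 1 lowest (log2 fold change 0.28 ± 0.12, edgeR adjusted p 0.255). Scg5, whose product is the chaperone and inhibitor of the Pcsk2 convertase, had 251.2, 228.1 and 280.6 CPM in Kihet, against 226.9, 199.6 and 219.4 CPM in WT, a narrow separation (log2 fold change 0.23 ± 0.09, edgeR adjusted p 0.219).

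On the other side of 0 were Chgb and Scg3. Chgb (chromogranin B) had 487.0, 606.5 and 501.5 CPM in Kihet, against 645.3, 724.6 and 584.7 CPM in WT. Its groups overlapped through Kihet replicate 2, and the log2 fold change was -0.29 ± 0.11 (edgeR adjusted p 0.19). Without that library Chgb was called lower, at -0.40 (adjusted p 0.0385). Scg3, which encodes secretogranin III, a protein that holds granins at the vesicle membrane, had 314.2, 351.7 and 317.5 CPM in Kihet, against 416.8, 386.4 and 371.8 CPM in WT, without overlap (log2 fold change -0.26 ± 0.08, edgeR adjusted p 0.138). Scg2 (secretogranin II) averaged 236.3 ± 32.5 CPM in Kihet and 242.6 ± 5.40 CPM in WT (SD, n = 3 each; edgeR adjusted p 0.872).

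Among processing genes the convertases and Cpe were slightly lower in Kihet and the inhibitor was higher, none past the edgeR threshold (at an unadjusted p under 0.05, 1 higher and 1 lower, against 9.80% and 8.26% of tested genes). Pcsk1 had 23.4, 20.8 and 23.8 CPM in Kihet, against 30.3, 30.8 and 26.5 CPM in WT, with no overlap (log2 fold change -0.37 ± 0.10, edgeR adjusted p 0.093, DESeq2 adjusted p 0.0256). Pcsk2 had 170.1, 161.0 and 161.6 CPM in Kihet, against 174.9, 200.7 and 177.5 CPM in WT (log2 fold change -0.17 ± 0.08, edgeR adjusted p 0.301). These groups did not overlap either. Cpe had 1044, 1076 and 1015 CPM in Kihet, against 1106, 1182 and 1138 CPM in WT (log2 fold change -0.13 ± 0.07, edgeR adjusted p 0.346). Pam had 92.0, 67.7 and 78.7 CPM in Kihet, against 68.7, 72.0 and 70.2 CPM in WT, groups that overlapped (log2 fold change 0.18 ± 0.11, edgeR adjusted p 0.416).

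Pcsk1n encodes proSAAS, an inhibitor of the Pcsk1 convertase. It had 71.9, 108.6 and 113.2 CPM in Kihet, against 21.8, 64.8 and 54.3 CPM in WT. All Kihet libraries were higher, but each group had one library far below the other two, Kihet replicate 1 and WT replicate 1. The log2 fold change was 1.06 ± 0.32 (edgeR adjusted p 0.126), and 0.71 ± 0.19 without WT replicate 1 (adjusted p 0.178). Its exons overlap those of Eras on the other strand by 135 bases. Penk and Pcsk2 likewise overlap genes on the other strand, and the strand setting of the counting is not given in the sources used here. Nmb shares 163 bases of exon with Sec11a and Pam 188 bases with B230216N24Rik, on the same strand, so reads there could belong to either gene.

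The receptors of these peptides were examined with 43 genes, of which 42 were in the table and 31 were tested. Calcr, the calcitonin receptor, was the only one called (1 higher, 0 lower, against 0.629% higher and 1.28% lower of all tested genes). At an unadjusted edgeR p under 0.05, 7 receptor genes were higher and 3 lower, against 9.80% and 8.26% of tested genes. Calcr (chr6:3685680-3764714) had 2.35, 0.60 and 1.67 CPM in Kihet, against 0.16, 0.17 and 0.18 CPM in WT, on 87, 24 and 60 reads in Kihet and 8, 7 and 7 in WT. Each WT library was under the minimum count of 10, so Calcr passed the filter through the Kihet libraries alone and its call is a description. Its log2 fold change was 3.15 ± 0.50 (edgeR adjusted p 0.0175), and the order of the Kihet libraries was that of Calca. Without any single library other than Kihet replicate 2 it was no longer called (adjusted p from 0.0566 to 0.0913, log2 fold change from 2.71 to 3.18), and in the fit with the brainstem covariate its log2 fold change was 1.62 (adjusted p 0.685).

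The most abundant receptor gene of each named precursor, per length, was not called. Adcyap1r1, the PACAP receptor, had a log2 fold change of -0.17 ± 0.09, Ntsr2, a neurotensin receptor of astrocytes, one of -0.29 ± 0.09, and Ramp1, which encodes the partner protein of the receptor for calcitonin gene-related peptide, one of 0.15 ± 0.11. Npy1r (neuropeptide Y), Cckbr (cholecystokinin) and Oprd1 (enkephalin) had log2 fold changes of -0.08 ± 0.39, 0.06 ± 0.34 and 0.24 ± 0.31. The Grp receptor gene Grpr was not tested and reached at most 0.103 CPM. Galr1, the most abundant galanin receptor, had 0.51, 0.43 and 0.42 CPM in Kihet, against 0.18, 0.26 and 0.26 CPM in WT (log2 fold change 0.95 ± 0.34, edgeR adjusted p 0.19). Tacr1, the substance P receptor, had 3.41, 1.08 and 1.64 CPM in Kihet, against 0.41, 1.29 and 0.65 CPM in WT (log2 fold change 1.39 ± 0.48, edgeR adjusted p 0.172). The median log2 fold change over the 31 receptors was 0.24, with 21 positive and 10 negative. Over all 16699 tested genes it was 0.01, with 8572 positive and 8127 negative. The 31 include Calcr, which passed the filter through the Kihet libraries alone, so these values are a description.

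Further genes of the pathway differed little as lists. Of 12 tested further proteases and amidation genes 1 was called lower and 0 higher in edgeR, against 1.28% and 0.629% of all tested genes. At an unadjusted edgeR p under 0.05, 1 of them was higher and 2 lower, and their median was 0.05. The called gene was Pcsk6, a convertase of the secretory route. It had 123, 143.6 and 131.2 CPM in Kihet, against 169.1, 192.1 and 166.3 CPM in WT (log2 fold change -0.41 ± 0.09). Its edgeR adjusted p of 0.0497 was at the threshold, and leaving out any single library other than Kihet replicate 2 ended the call (adjusted p from 0.11 to 0.204), with log2 fold changes of -0.46 to -0.34. Of 16 dense-core vesicle genes, 14 extracellular peptidases and 9 further peptide precursors none was called in edgeR. Their medians were -0.03, -0.04 and 0.05. At an unadjusted p under 0.05 the vesicle genes had 2 higher and 4 lower, the peptidases 1 and 3, and the further precursors 2 and 1. The same test gave 9.80% higher and 8.26% lower of all tested genes. DESeq2 called 6 genes higher and 4 lower over these lists and the receptors, against 2.52% and 3.18% of the genes it tested.

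The order of the Kihet libraries was set against the brainstem markers gene by gene. Kihet replicate 2 was above every WT library in 8 of the 16 tested precursors, Gal and Adcyap1 among them. It was within the WT range in 5 precursors and below it in 3. Of the 8 tested markers it was above every WT library in 5, within the WT range in 2 and below it in 1. Its marker sum lay inside the WT range, but that position depends largely on Th and Ddc. Kihet replicates 1 and 3 were above every WT library in 11 and 12 precursors. The matching shares over all tested genes were not computed, and Crh passed the filter mainly through Kihet libraries. These counts are therefore a description of the precursors and do not set them apart from other genes. With the covariate the median of the precursors was 0.11, but the marker level itself differs between the groups and only 4 genes of 16699 were then called in all. Without Kihet replicate 2, 8 members were called higher, against 2.04% of genes tested, namely Gal, Calca, Tac1, Nts, Adcyap1, Grp, Pdyn and Crh.

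**Figure D3:**
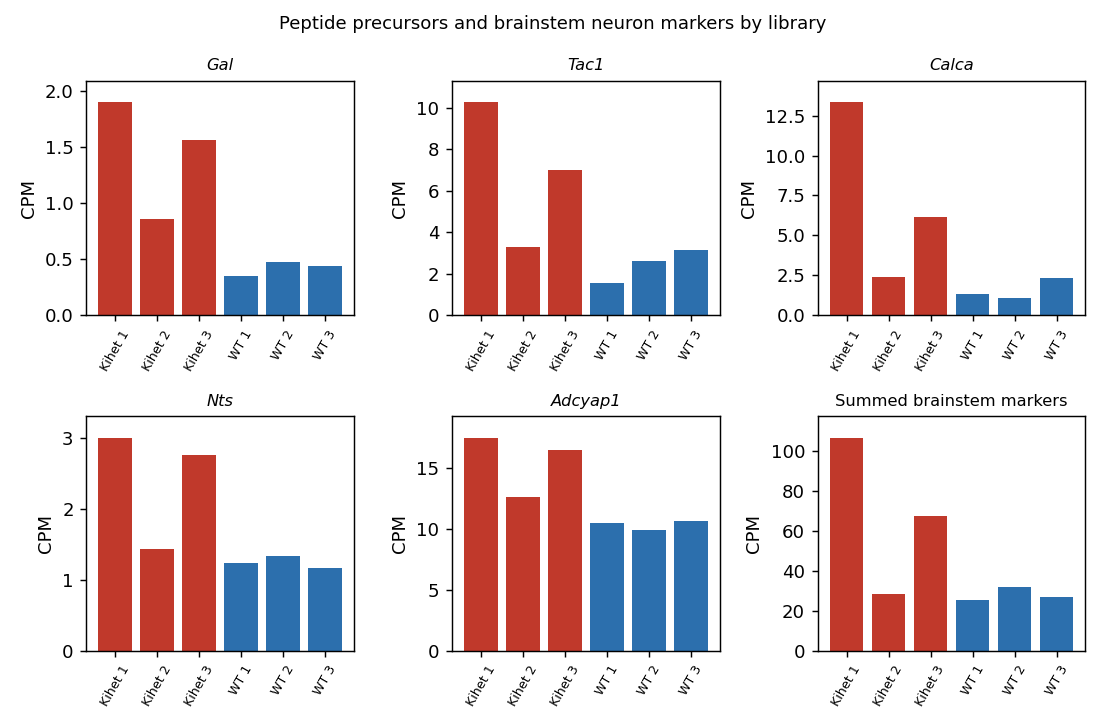
CPM of 5 precursors and the summed CPM of 11 brainstem neuron markers in each library, Kihet in red and WT in blue, each axis from 0. Kihet replicate 1 is highest in every panel and Kihet replicate 2 lowest of its group, and for the precursors Kihet replicate 2 still stands above all WT bars, by a wide gap only in Gal and Adcyap1.

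Cerebellar markers were abundant in all libraries. Purkinje cell markers summed to 7345 to 8777 CPM in Kihet and 10690 to 12170 CPM in WT, with 3 of 6 called lower, against 1.28% of all tested genes. Granule neuron markers summed to 3097 to 3821 CPM in Kihet and 3892 to 4375 CPM in WT. Interneuron markers summed to 497.5 to 599.7 CPM in Kihet and 641.9 to 696.7 CPM in WT. Astrocyte and Bergmann glia markers summed to 2529 to 2899 CPM in Kihet and 3326 to 3452 CPM in WT, with 3 of 6 called lower, against the same 1.28%. Unipolar brush and deep nuclear neuron markers summed to 195.3, 97.4 and 151.6 CPM in Kihet, against 121.2, 136.7 and 158.3 CPM in WT. Within Kihet, Slc17a6, Spp1 and Sncg had the library order of Gal, and Eomes, Lmx1a and Tbr1 did not. Hypothalamic markers summed to at most 9.23 CPM in Kihet and 6.51 CPM in WT, with Six6 at 0 in all libraries, and pituitary markers to at most 1.06 CPM in Kihet and 1.004 CPM in WT, with Cga at 0. Choroid plexus markers ranged from 25.7 to 1311 CPM in Kihet and from 505.0 to 1898 CPM in WT. The part of these markers in the peptide values was not tested beyond the covariate fits. The scaling affected calls over all genes: 33.0% of calls were higher with TMM scaling and 63.0% with library size alone.

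**Figure D4:**
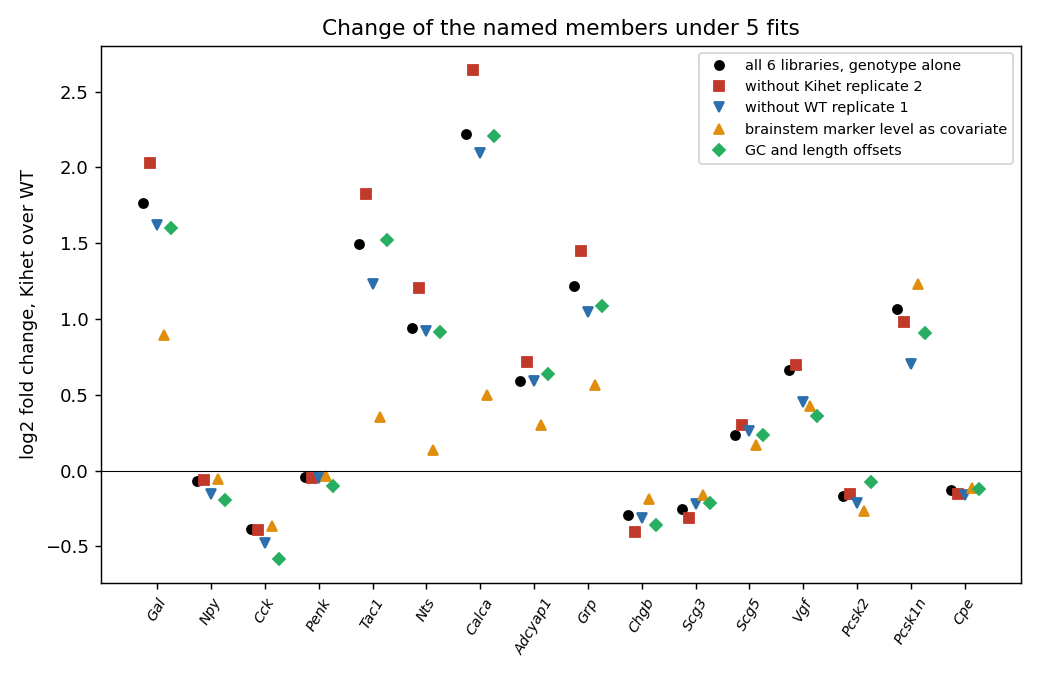
Log2 fold change, Kihet over WT, of the 16 named members in 5 fits: all 6 libraries, without Kihet replicate 2, without WT replicate 1, with the brainstem covariate and with GC and length offsets. The covariate lowers Calca to 0.50, Tac1 to 0.35 and Nts to 0.13, while Penk and Cpe hardly move.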

How the data were processed

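The authors deposited raw read counts per Ensembl gene, made with HTSeq 0.6.1, TopHat2 2.0.14, Bowtie2 2.1.0 and bcl2fastq 2.17.1.14 on mm10, per the submitters' processing notes. Libraries of polyadenylated RNA were stranded, per the labels' protocols. The annotation release is not given in the sources used here. Names, lengths and coordinates came from GENCODE M21.

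Kihet was compared with WT in edgeR 4.0.16 (R 4.3.3): filterByExpr defaults (minimum count 10, minimum total 15), TMM scaling, a design of genotype alone, the quasi-likelihood F test and Benjamini-Hochberg adjustment over 16699 genes, with 0.05 as the highest adjusted p of a call. The SE is the absolute log2 fold change divided by the square root of F. Members and lists were chosen with earlier results of these data known.

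Members given in full were called, were among the 3 most abundant per length of their class, or had groups without overlap and an absolute log2 fold change of at least 0.5. Others were named after their values were seen. Alternatives used limma 3.58.1 and DESeq2 1.42.0 as well. On simulated counts for this comparison (16479 genes), 67% of 100 genes changed 1.5-fold and 86% of 100 changed 2-fold were called, and 6.71% of calls were unchanged genes. The changed genes were drawn from those with a mean of at least 1 CPM over all libraries. The recovery therefore does not cover genes below that level, Gal and Calcr among them. Counts were simulated for each gene independently, without variation shared between genes, so these shares need not hold for the real libraries. Chi-square per degree of freedom between libraries of a group was 13.1 to 28.1, above sampling noise.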

Additional observations from a re-analysis of the deposited data

How the results depend on the processing

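Most settings changed 1 choice. DESeq2 replaced scaling, model, test and the set of genes tested, limma-voom the model and test, quality weights were added to limma-voom, and GC and length offsets were chosen after seeing the data. Shares in parentheses are those of all genes tested. The count of members called higher was 5 with library size alone (1.93%), 2 with the upper quartile (0.856%), 12 without a filter (2.49%), Calcb among them, which is not one of the 27 tested members, 0 with a filter at CPM of at least 1 in 3 samples (0.604%), 5 with DESeq2 (2.52%), 0 with limma-voom (0.467%), 7 with quality weights (1.63%), 2 with robust estimation (0.695%), 0 with the brainstem covariate (0.0120%), 9 with the choroid plexus covariate (2.92%) and 4 with GC and length offsets (1.34%). The count called lower was 2 without a filter (2.18%), 2 with DESeq2 (3.18%), 1 with quality weights (2.83%), 2 with the choroid plexus covariate (5.72%) and 1 with GC and length offsets (3.03%). Leaving out 1 library gave 0 to 8 members higher and 0 to 1 lower, the most without Kihet replicate 2. Without that library 5.04% of all genes tested were called in either direction and 2.04% were called higher. In the fits without another library 0.0414 to 0.152% of all genes were called higher and 0.189 to 0.370% lower. In the other lists the main fit tested 31 receptors, 12 further proteases and amidation genes, 16 vesicle genes, 14 peptidases and 9 further precursors. Of the genes of these lists, 3 were called higher with library size alone (1.93%) and 9 without a filter (2.49%). The count was 0 with the CPM filter (0.604%), 6 with DESeq2 (2.52%), 0 with limma-voom (0.467%) and 2 with quality weights (1.63%). The brainstem covariate gave 0 (0.0120%), the choroid plexus covariate 8 (2.92%) and GC and length offsets 2 (1.34%). Called lower were 0, 0, 2, 5, 0, 4, 0, 7, 0, 9 and 6 with DESeq2 size factors, library size alone, the upper quartile, no filter, the CPM filter, DESeq2, limma-voom, quality weights, the brainstem covariate, the choroid plexus covariate and GC and length offsets. Leaving out 1 library gave 0 to 8 genes of these lists higher and 0 to 6 lower, again the most without Kihet replicate 2. The shares of all genes in those fits are the ones given above for the members. The cause was not tested.

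The sign turned for Npy (0.0062) and Penk (0.034) with library size alone and for Penk without Kihet replicate 1, in a range of -0.092 to 0.0042 over the fits that left out 1 library. Of the 16 named members 14 kept their direction under every alternative that gave a value, and the CPM filter left out Gal and Grp. Of the other tested members, Scg2, Vip, Sst, Crh, Pam and Nxph4 turned in sign under at least 1 alternative. Per length of the longest transcript, Penk stood at 103.2 and Cpe at 493.5 CPM per kilobase in Kihet.

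Same-numbered samples shared deviations at Pearson r of 0.00, 0.17 and 0.32 across genes. Correlations between samples with unlike numbers were not computed, so these values do not decide whether the numbers mark pairs. The sample titles state no pairing, and the numbers are not taken as pairs. With the replicate number as a block, 11 members were called higher and 4 lower (6.14% and 6.04% of all genes), and 5 and 10 genes of the other lists. Depth limits the precursors below 1 CPM most.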
